A study of Mus musculus with 25 samples.

Results

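Back skin of mice on postnatal day 17 was compared with back skin on postnatal day 14. Each age had 3 arrays, 6 of the 25 in the series, and 12422 of the 12488 probe sets on the array were not controls and entered the comparison. The series holds whole back skin total RNA of 8 ages between postnatal day 1 and 1 year, hybridised to short-oligonucleotide arrays, 1 array per labelled mouse. The labels describe a mouse by its age and its number within that age, and they state no strain, sex, genotype or treatment. The tissue held the layers of whole back skin: on day 14 the hair keratin Krt86 was at 49551 ± 3628 intensity units (SD, n = 3), decorin (Dcn) of dermal fibroblasts at 5844 ± 93.5, adiponectin (Adipoq) of fat cells at 1562 ± 153, and muscle creatine kinase (Ckm) at 606 ± 53.2. In bulk tissue, fewer cells of a type and less RNA per cell cannot be told apart.

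The hair follicle cycles between growth (anagen), regression (catagen) and rest (telogen). In growth, matrix cells at the base of the follicle divide and feed the hair shaft and the inner root sheath around it, and melanocytes in the bulb hand pigment to the shaft. Regression begins when division and pigment synthesis in the bulb stop, after which the lower follicle dies by apoptosis and the dermal papilla, the cluster of signalling fibroblasts under the bulb, is drawn upwards. In young mice the follicles of the back pass through these phases together, and the skin around them changes too: the fat layer and the dermis thin and thicken with the cycle, and the animal itself grows between the ages compared.

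Several properties of the arrays differed between the ages. The brightest probe set read 55128.8 to 64133.3 units on the arrays of day 14 and 32441.6 to 33481.1 on those of day 17. The array median was 198.05 to 205.35 on day 14 and 234.85 to 242.15 on day 17. Across the series, the arrays of days 1, 17 and 23 and 5 months had their brightest probe set between 22033.5 and 36049 units, and those of days 6 and 14, 9 weeks and 1 year between 41699.8 and 78877. The female transcript Xist and the Y-linked Eif2s3y were both well above the floor on each array of day 17, while mice 1 and 2 of day 14 had Xist alone and mouse 3 had Eif2s3y alone, although the labels name 1 mouse per array. Whether the arrays of day 17 held RNA of more than 1 mouse was not tested. As a measure of RNA quality, Gapdh had a 3' over 5' ratio of 0.931 ± 0.0103 on day 14, against 0.817 ± 0.0504 in the older mice (SD over 3 arrays). The same ratio of Actb was 1.24 ± 0.0628 and then 1.15 ± 0.0689. Log2 values of 2 arrays correlated at 0.9626 to 0.9652 within day 14, at 0.9625 to 0.9652 within day 17 and at 0.9089 to 0.9279 between the ages. The part of these differences in the results below was not tested, and none can be told apart from age in this design.

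After a filter on dim probe sets 8835 remained, and they represented 6569 named genes by 1 probe set each. In limma with Benjamini-Hochberg adjustment, 1168 genes were higher on day 17 (17.8%) and 857 were lower (13%) at an adjusted p under 0.05. Among probe sets the shares were 17.8% and 12.4%. After quantile normalization 13.9% of genes were higher and 14.8% lower, and with arrays centred on their medians 8.84% were higher and 24% lower. Below, rose and fell are written of genes that passed this test, and a change is the log2 difference day 17 minus day 14 with its standard error. The increases were the larger: 360 genes rose at least 2-fold (5.48%) and 133 fell as much (2.02%), and 30 rose (0.457%) and 6 fell (0.0913%) at least 4-fold. The median change of all genes was 0.096. The median over all probe sets was 0.116, and it became -0.116 once every array was centred on its own median. That step took the share of higher calls among probe sets from 58.9% to 28.4%, so a statement that more genes rose than fell depends on the scaling. The 3 mice of each age did not overlap in 29.8% of genes higher on day 17 and in 21.7% of genes lower on day 17, whether or not these passed the test.

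A second limit concerns probe sets of the same gene. Of 156 genes with at least 2 called probe sets, 40 (25.6%) had calls in both directions. This share, looked up after values were seen, was 5.08% to 17.1% between ages of like brightest signal, and 15.8% to 26.1% between ages of unlike brightest signal. Of 68 named genes that passed and had another tested probe set, 8 had one called the opposite way, and these are marked below. For 13, Abca1, Aldh1a1, Cdk4, Csnk1d, Ctsb, Fgfr2, Gja1, Lox, Mfap5, Notch1, Rps24, Sox10 and Tie1, another probe set had a change of the opposite sign that did not pass. Agreement in sign does not mean agreement in size. Among genes that rose, other probe sets of Zbtb16, Ifnar2, Gfra2 and Acads had changes of 0.089, 0.0, 0.039 and 0.065, and none passed. Another probe set of Ucp1, at 1.03, did not pass either. Of 273 named genes that passed, 77 missed the threshold when 1 of the 6 mice was left out.

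**Figure D1:**
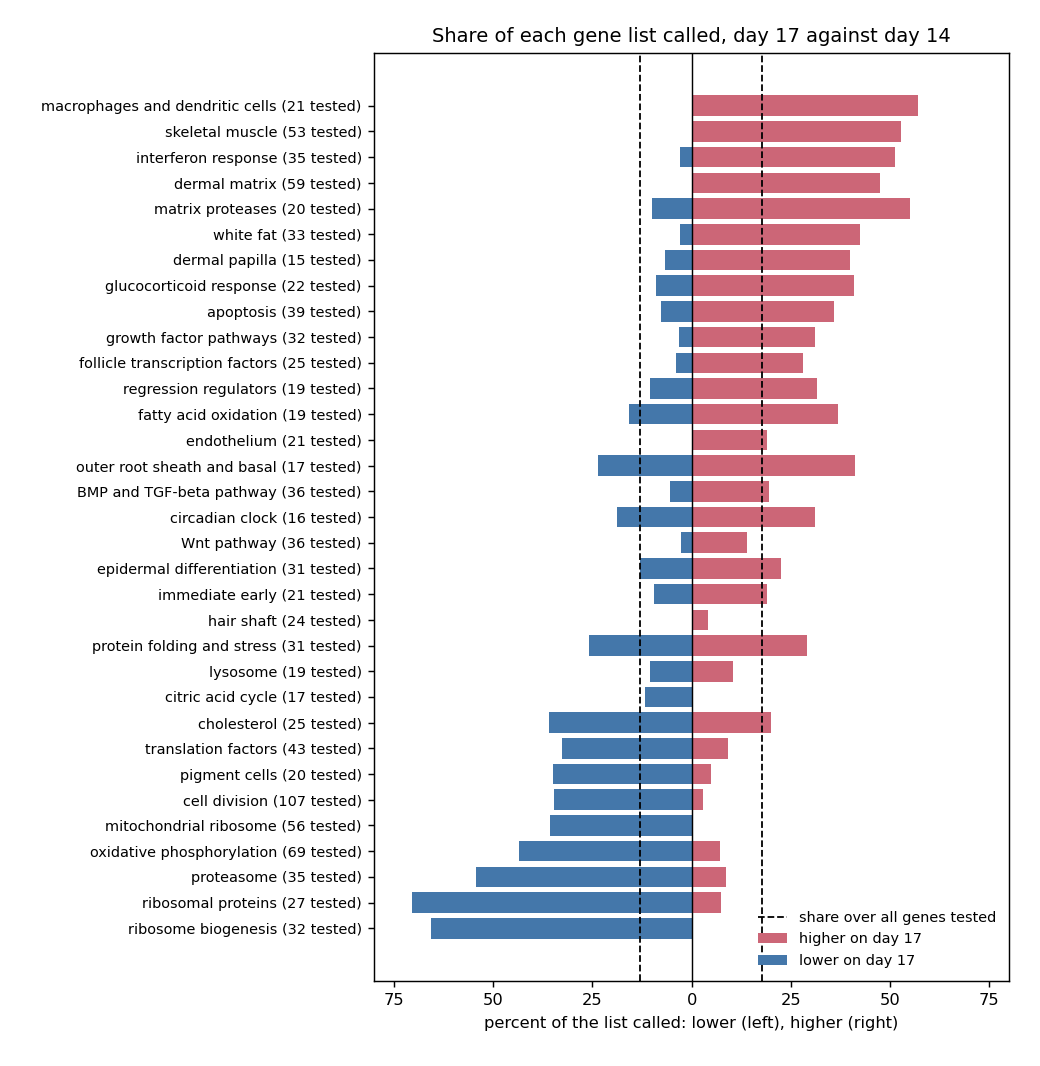
Share of each gene list called in limma, for lists with at least 15 tested genes. Bars to the right give the percent of the list's tested genes that were higher on day 17 and bars to the left the percent lower, and the dashed lines give the shares over all genes tested (17.8% and 13%). Macrophage, muscle, interferon and matrix lists lie beyond the dashed line on the higher side, and ribosome biogenesis, ribosomal protein, proteasome and cell division lists beyond it on the lower side.

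Hair keratins and keratin-associated proteins, which pack the cortex and cuticle of the shaft, mostly read lower on day 17 and were still far from their level at rest. The cortex keratin Krt31 was at 28681, 33717 and 33838 units in the 3 mice of day 14 and at 13908, 13757 and 12385 in those of day 17. Its partner of the other keratin type, Krt86, was at 45434, 52279 and 50939 on day 14 and at 20155, 19897 and 18349.5 on day 17. The highest mouse of day 17 was below the lowest of day 14 for both. Krtap8-1, a glycine and tyrosine rich keratin-associated protein, was at 30652, 40109 and 41049 on day 14 and at 21194, 18811 and 18482 on day 17, again without overlap. Krtap19-5 had the largest decrease of the shaft genes, -1.43 ± 1.06, from 7320.2 ± 584 to 2715 ± 163 units.

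Of 24 tested shaft genes, 19 had all mice of day 17 below all mice of day 14, against 21.7% of all genes, and the median change was -0.80. None of the 19 passed limma's test in the fit of 18 arrays, which takes the spread of each gene from 6 ages, and 2, Krtap5-1 and Krt32, had an unadjusted p under 0.05. Krtap5-1 had a change of -0.88 ± 0.34 with an adjusted p of 0.064, and Krt32 of -0.89 ± 0.41 with 0.113. Krt86 had a change of -1.35 ± 0.83 with an adjusted p of 0.235. At 9 weeks, mouse 3 had 11066.3 units of Krt31 where mice 1 and 2 had 156.9 and 61.7, and this spread enters the standard error of every young comparison. With the 6 arrays of days 14 and 17 alone, the 19 genes were called lower (15.6% of all genes were called lower in that fit), and Krt31 had a change of -1.26 ± 0.09 with an adjusted p of 0.000356. Without that 1 mouse of 9 weeks, 16 of the 24 were called lower (14.8% of all genes). After quantile normalization, which gives all arrays the same brightest values, the median change of the list was -0.13, and none was called lower in the fit of 18 arrays.

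One shaft gene went the other way. Krtap6-3 was at 319.5, 537 and 445 units on day 14 and at 3024, 2893 and 2812 on day 17, a rise of 2.78 ± 0.61 (adjusted p = 0.00264). Every mouse of day 17 was above every mouse of day 14, and the mean was 1427 on day 6 and 16.7 on day 23. Krtap6-2, of the same family, was at 22095, 26487 and 25338 on day 14 and 18593, 19423 and 17585 on day 17. These genes are near-identical copies, and whether short probes tell them apart was not tested.

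By day 23, in rest, little of the shaft genes was left: Krt31 was at 112 ± 31.2 units and Krtap8-1 at 113 ± 22.6 (SD, n = 3). On day 17 the shaft list still stood about as high as on day 6, with a median of -0.80 relative to day 14 at both ages, and on day 23 it was at -6.47. Regulators of shaft differentiation were likewise still present. Foxn1, the transcription factor missing in nude mice, was at 744, 891 and 752 on day 14 and 625, 833 and 835 on day 17, with overlapping groups, and had a mean of 63.2 on day 23. Msx2 was at 1799, 1827 and 1902 units on day 14, 1314, 1426 and 1327 on day 17 and 15.8 ± 2.65 on day 23, and Dlx3 was at 5099 ± 308, 3809 ± 519.8 and 374 ± 18.7. Neither passed the test for day 17 against day 14 in the fit of 18 arrays.

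The inner root sheath moulds the growing shaft and is shed with it. Its keratins Krt25, Krt27, Krt71 and Krt72 were all without overlap and lower on day 17, and none passed in the fit of 18 arrays. Krt71 was at 40543, 45231 and 44409 units on day 14 and at 25578, 25737 and 27146 on day 17, a change of -0.73 ± 1.14. Tgm3, the transglutaminase that crosslinks sheath and shaft proteins, fell from 1248, 1724 and 1423 to 706, 576 and 657, by 1.17 ± 0.38 on the log2 scale (adjusted p = 0.0281). Padi2, an enzyme that turns arginine into citrulline, rose from 103, 173 and 80.6 to 320.3, 344 and 326. Cdkn1c, the cell cycle inhibitor p57 that marks cells leaving division in the sheath, rose from 453, 469 and 352 to 748, 609 and 632. In mice 1 and 2 of 9 weeks Krt25 was at 16.5 and 4.7 units, while Padi2 was at 572.5 and 431.1 and Cdkn1c at 434.8 and 488.3. How much of the signal of Padi2 and Cdkn1c came from the sheath was not tested. Of 12 tested sheath genes 1 fell and 2 rose, with a median of -0.40, which turned to 0.13 after quantile normalization. With the 6 arrays alone 6 were lower and 4 higher (15.6% and 20.2% of all genes). Leaving out 1 mouse ended the call of Tgm3 (limma adjusted p = 0.096 without mouse 2 of day 14) and Cdkn1c (0.0692 without mouse 3 of day 14).

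**Figure D2:**
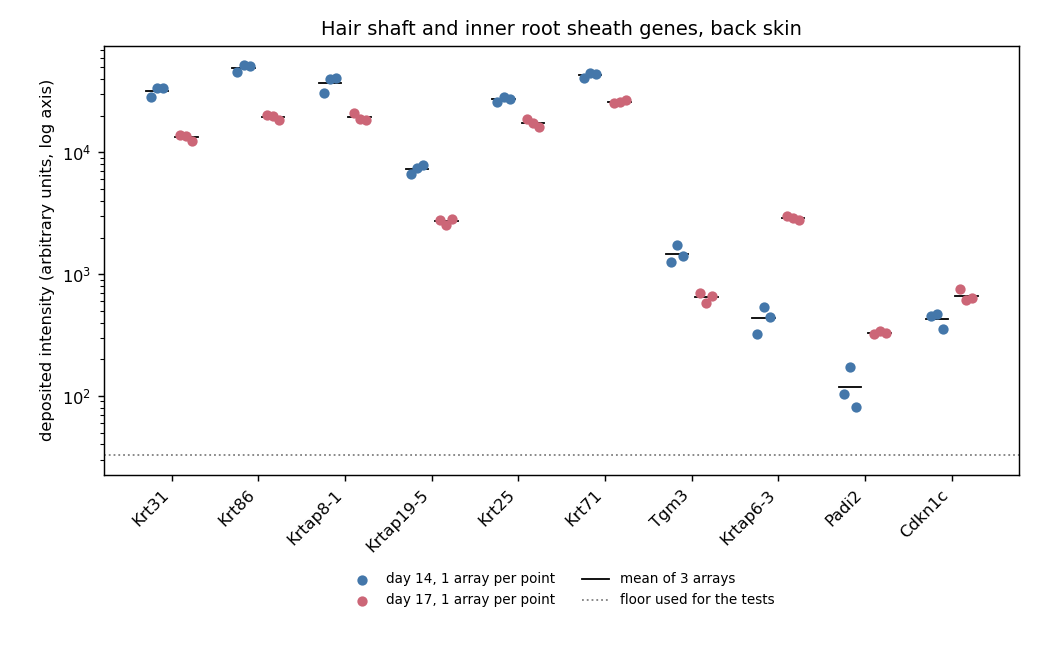
Deposited intensity of shaft genes (Krt31, Krt86, Krtap8-1, Krtap19-5), inner root sheath genes (Krt25, Krt71, Tgm3) and 3 genes that rose (Krtap6-3, Padi2, Cdkn1c), on a log axis. Each point is 1 array, the bars are means of 3 arrays, and the dotted line is the floor of 32.7 units. The groups do not overlap for any of the 10 genes.

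Dividing matrix cells feed the growing hair, and many genes of cell division were lower on day 17. Of 107 tested division genes 37 fell (34.6%, against 13% of all genes) and 3 rose, with a median of -0.42. The falls lay in DNA replication, where 14 of 37 genes fell and none rose, and in mitosis, where 20 of 48 fell and none rose. Among cyclins, kinases and inhibitors of the G1 phase 2 of 19 fell and 3 rose, with a median of 0.004. The counts of lower genes were 48 after quantile normalization (14.8% of all genes were lower) and 62 with arrays centred on their medians (24% of all genes).

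Replication genes are turned on by E2F factors at the G1 to S boundary, and mitosis genes by a later programme that acts through the CHR element and CCAAT boxes, as is known from cell culture. Promoters of 5 genes that fell are shown so that these elements can be seen, 1 of 2 for Mcm7. The promoters were picked, in order of fall, from those that held the elements. Genes with larger falls were passed over, so the 5 do not show how often the elements occur. They are RefSeq promoters of the GRCm38.p6 build, 250 bases before to 50 after the annotated start, printed 5′ to 3′ along the gene's strand. For the first 3, mitosis genes, capitals mark TTTGAA (CHR) and CCAAT on either strand. For the last 2, subunits of the replicative helicase, capitals mark the E2F words TTTCGCGC and TTTGGCGC on either strand, which overlap in Mcm5.
Kif22, chr7:127042371-127042670, minus strand, a kinesin that moves chromosomes.
Kif22: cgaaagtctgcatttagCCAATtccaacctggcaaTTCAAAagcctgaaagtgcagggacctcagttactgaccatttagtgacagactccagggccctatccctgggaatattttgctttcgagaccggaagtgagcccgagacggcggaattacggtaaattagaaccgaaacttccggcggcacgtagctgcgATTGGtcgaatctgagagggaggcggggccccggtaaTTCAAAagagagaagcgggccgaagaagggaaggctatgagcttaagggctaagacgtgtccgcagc
Cdc20, chr4:118437294-118437593, minus strand, the activator of the anaphase-promoting complex.
Cdc20: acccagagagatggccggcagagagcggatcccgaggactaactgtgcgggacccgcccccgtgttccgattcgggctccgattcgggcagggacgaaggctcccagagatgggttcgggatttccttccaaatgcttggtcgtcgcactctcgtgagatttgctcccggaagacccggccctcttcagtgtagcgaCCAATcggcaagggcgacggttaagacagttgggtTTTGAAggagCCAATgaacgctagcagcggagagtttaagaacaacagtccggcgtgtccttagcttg
Cks1b, chr3:89418242-89418541, minus strand, a small subunit of cyclin-dependent kinases.
Cks1b: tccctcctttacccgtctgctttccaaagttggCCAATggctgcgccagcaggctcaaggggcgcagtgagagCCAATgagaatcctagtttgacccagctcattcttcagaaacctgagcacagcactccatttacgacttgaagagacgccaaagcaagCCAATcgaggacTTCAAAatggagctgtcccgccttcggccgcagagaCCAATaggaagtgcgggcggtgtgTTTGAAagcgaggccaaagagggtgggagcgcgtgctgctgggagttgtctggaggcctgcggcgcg
Mcm7, chr5:138171834-138172133, minus strand.
Mcm7: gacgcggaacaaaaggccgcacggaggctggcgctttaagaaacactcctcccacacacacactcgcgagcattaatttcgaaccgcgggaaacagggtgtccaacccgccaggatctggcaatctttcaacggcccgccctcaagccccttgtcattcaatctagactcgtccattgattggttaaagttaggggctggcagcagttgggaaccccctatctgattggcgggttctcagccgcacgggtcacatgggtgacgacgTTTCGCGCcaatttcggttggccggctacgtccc
Mcm5, chr8:75109259-75109558, plus strand.
Mcm5: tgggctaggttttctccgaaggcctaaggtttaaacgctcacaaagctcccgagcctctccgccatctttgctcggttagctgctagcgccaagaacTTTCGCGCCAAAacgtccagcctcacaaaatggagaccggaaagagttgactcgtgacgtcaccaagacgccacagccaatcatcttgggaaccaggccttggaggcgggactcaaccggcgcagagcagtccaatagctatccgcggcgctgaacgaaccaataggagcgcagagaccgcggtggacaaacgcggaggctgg
The element TTTGAA was found in 12 of 17 promoters of mitosis genes that fell (70.6%) and in 17 of 25 promoters of mitosis genes that did not pass (68%). It was in 17.9% of all 32851 promoters in the table and in 12.4% of the 6782 promoters of genes tested. CCAAT was found in 70.6% and 80% of the mitosis promoters, against 37.4% of all and 36.9% of those of genes tested. The E2F words were in 5 of 18 promoters of replication genes that fell (27.8%) and in 2 of 23 of those that did not pass (8.7%). They were in 0.813% of all promoters and in 1.5% of those of genes tested. A match is a string of letters and was not tested as a binding site. The mitosis genes that fell and those that did not pass held TTTGAA about equally often.

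These 5 genes all fell without overlap between the ages. The motor Kif22 went from 1341, 1366 and 1096 units on day 14 to 575, 449 and 570.0 on day 17, a change of -1.26 ± 0.25. Cdc20 went from 2059, 1615 and 1837 to 762, 836 and 764. Cks1b, at 1066, 1069 and 1113 in the 3 mice of day 14, was at 534, 576 and 466 on day 17. The helicase subunits were about as much lower: Mcm7 fell from 680.2, 889.9 and 766 to 356, 364 and 357 and Mcm5 from 1359, 1324 and 1227 to 566, 664 and 602.

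Ribonucleotide reductase, the enzyme that makes deoxynucleotides, had the largest fall of the replication genes. Its large subunit Rrm1 was at 669.6, 620.2 and 565 units on day 14 and at 162, 177 and 219 on day 17, and the small subunit Rrm2 at 749.8, 585 and 714 on day 14 and 254, 332 and 291 on day 17. Fen1 and Tk1, which trim and feed new DNA strands, fell by 1.05 ± 0.22 and 1.07 ± 0.16 on the log2 scale. Pcna, the sliding clamp of DNA polymerase, fell by less, 0.84 ± 0.15. In mitosis the condensin subunit Ncaph fell by 1.65 ± 0.26, the kinesin Kif20a by 1.32 ± 0.39 and the checkpoint kinase Bub1 by 1.08 ± 0.32, which became 0.000 with the floor at the 40th percentile. Kif20a was at 448, 176 and 430.4 units on day 14, where mouse 2 was well below the other mice and still above every mouse of day 17. Cdk1, the kinase that starts mitosis, fell from 913, 875 and 948 to 539, 406 and 447. In fits without 1 mouse the call was lost for Kif20a (limma adjusted p = 0.0778 without mouse 1 of day 14), Bub1 (0.0756 without mouse 3 of day 17) and Cdk1 (0.0645 without mouse 2 of day 17).

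Genes of the G1 phase were mixed. The kinase Cdk2 fell by 1.07 ± 0.18 and Cdk4 by 0.47 ± 0.09. E2f5, a repressor of the E2F family, rose from 154, 139.5 and 90.5 to 210.3, 223 and 282. Mybl2 rose by 0.72 ± 0.27, but its other probe set fell by 0.89, so its direction is not settled. Ccnd1, cyclin D1, was at 723, 1058 and 1000.3 on day 14 and 812, 754 and 752 on day 17 with overlapping groups (adjusted p = 0.391). The proliferation marker Mki67 was at 830.3, 713 and 789.6 on day 14 and 441, 368 and 431 on day 17, without overlap, and missed the threshold (adjusted p = 0.0769). Another probe set of Mki67 was called higher, at 0.91 (limma adjusted p = 0.0105), so its direction is not settled. Mycn, a Myc family factor of dividing progenitors, fell from 483, 511 and 543 to 157, 172 and 128, and it was among the 15 largest decreases. The call did not stand without 1 mouse for Mybl2 (limma adjusted p = 0.23 without mouse 3 of day 17).

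The median level of the mitosis genes differed among ages within both sets of array brightness. Relative to day 14, it was 0.39 on day 1, -0.60 on day 17, -0.78 on day 23 and -0.84 at 5 months, in the dimmer set. It was 0.56 on day 6, -1.31 at 9 weeks and -0.73 at 1 year, in the brighter set. The part of array brightness in the fall was not tested. The median of the replication genes was -0.34 on day 17 and -0.28 on day 23 relative to day 14. Rrm2 was at 293 ± 39.0 and 262 ± 32.6 units on days 17 and 23, and Mcm7 at 359 ± 4.29 and 430.5 ± 41.9 (SD, n = 3). Cdc20 was at 457 ± 49.7 on day 23.

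Pigment synthesis fell with division. All 5 tested melanin enzymes and melanosome proteins fell and none overlapped, with a median of -1.57, and in the whole pigment list 7 of 20 genes fell (35%) and 1 rose. Tyrosinase (Tyr), the enzyme that starts melanin synthesis, was at 178, 189 and 164 units on day 14 and 123, 69.4 and 90.2 on day 17. Tyrp1 was at 1224, 1716 and 1300.2 on day 14 and 397, 449 and 378 on day 17, and Dct at 2584, 3351 and 3025 on day 14 and 1004, 1059.5 and 941 on day 17. Pmel, the fibre on which melanin is laid down, fell from 2594, 2986 and 2793 to 780.0, 989 and 762, a change of -1.73 ± 0.20 (adjusted p = 1.33e-05). Oca2, a melanosome transporter, fell by 1.47 ± 0.32 and the melanocyte channel Trpm1 by 1.45 ± 0.27. With 1 mouse left out, the threshold was missed by Tyr (limma adjusted p = 0.166 without mouse 2 of day 17) and Tyrp1 (0.0935 without mouse 2 of day 14).

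Of 9 signals, receptors and factors of pigment cells, by contrast, 2 fell, Trpm1 and Kitl, and 1 rose. Mitf, the master regulator of melanocytes, was at 274, 217 and 227 units on day 14 and 296, 259 and 273 on day 17, with overlapping groups and a change of 0.21 ± 0.33. The receptor Kit was at 286, 339 and 287 on day 14 and 386, 312 and 318 on day 17, and the melanocortin receptor Mc1r at 234, 327 and 290.2 on day 14 and 305, 279.7 and 308 on day 17. Neither passed. The Kit ligand Kitl fell from 419, 469 and 449 to 323, 309 and 284. Sox10, a factor of melanocytes and of Schwann cells, rose from 515, 454 and 509 to 799, 815 and 766. Myelin genes rose beside it: Mbp by 1.42 ± 0.26, Mag by 0.91 ± 0.23 and Pmp22 by 0.89 ± 0.14. In all 4 of 9 nerve and Schwann cell genes rose (44.4%, against 17.8% of all genes) and none fell. Relative to day 14 their median was 0.192 on day 1, 0.488 on day 17, 0.733 on day 23 and 0.161 at 5 months, in the dimmer set of arrays. It was -0.183 on day 6, 0.078 at 9 weeks and -0.235 at 1 year, in the brighter set. The part of array brightness was not tested. On day 23 Mitf was at 75.6 ± 35.5 and Mc1r at 136 ± 27.6. A single mouse left out ended the call of Kitl (limma adjusted p = 0.0989 without mouse 3 of day 17).

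**Figure D3:**
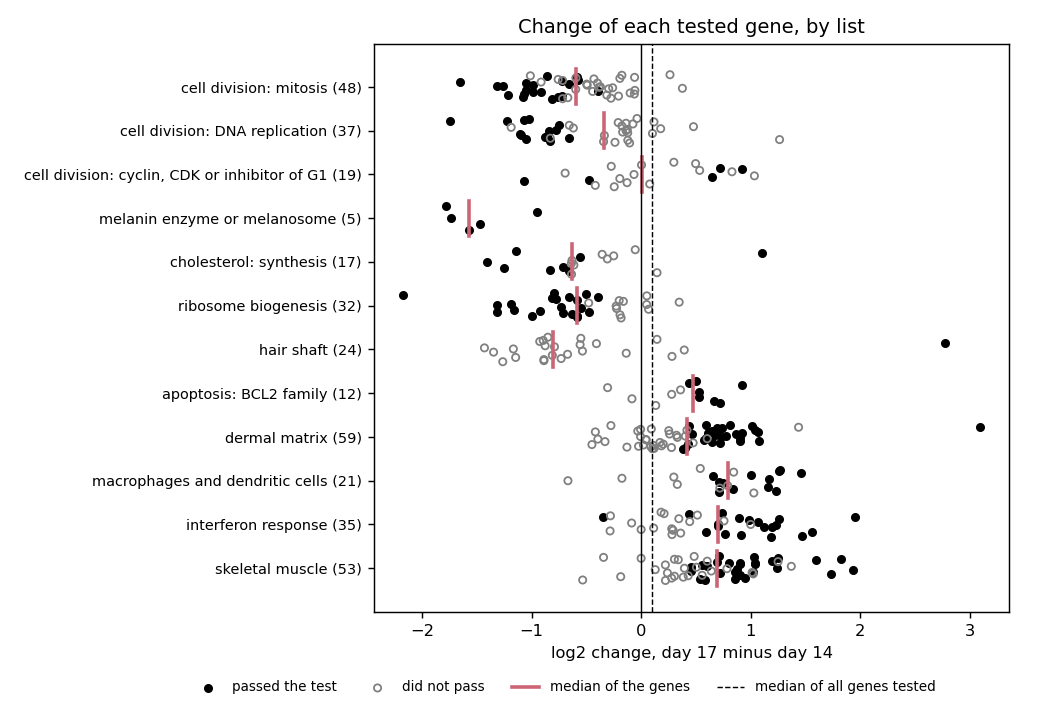
Log2 change, day 17 minus day 14, of each tested gene in 12 groups of genes. Filled points passed limma at an adjusted p under 0.05, open points did not, red bars are group medians and the dashed line is the median of all genes (0.096). Mitosis, replication, melanin and ribosome biogenesis genes lie mostly to the left and matrix, macrophage, interferon and muscle genes mostly to the right, while all but 1 of the hair shaft points are open.

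The outer root sheath and the basal layer house the stem cells from which the next hair grows. Some genes that tie these cells to the basement membrane rose, although not every integrin subunit passed. Those that rose were the integrin subunits Itga6 (199.5, 174 and 172 units on day 14 and 341, 307 and 311 on day 17) and Itgb4, the hemidesmosome collagen Col17a1 and the laminin chain Lamb3. Col17a1 went from 2506, 2467 and 2488 to 3775, 4362 and 3709.6, without overlap, and stood at 6935 ± 434 on day 23. Nfatc1, a factor that holds bulge stem cells at rest, rose from 217, 231 and 297 to 445, 380.2 and 431. Lgr5, a receptor of cycling stem cells, was at 129, 17.3 and 53.8 on day 14 and 129, 242 and 321 on day 17 and rose by 1.82 ± 0.52, although mouse 1 of day 17 read no higher than mouse 1 of day 14. In all 7 of 17 genes rose (41.2%, against 17.8% of all genes) and 4 fell. Krt17, the keratin of the outer sheath in growth, fell from 19186, 19391 and 17696 to 10706, 10675 and 11835. Another of its probe sets rose by 1.25, and the last had a change of -0.07 ± 0.165 and did not pass. Trp63, which maintains basal cells, fell by 0.39 ± 0.09. The bulge marker Cd34 was at 389, 461 and 526 on day 14 and 645, 653 and 627 on day 17, higher in every mouse of day 17 and short of the threshold (adjusted p = 0.0635), and its other probe set was called higher, at 1.15. Calls that 1 mouse could end were those of Itgb4 (limma adjusted p = 0.0524 without mouse 2 of day 14) and Lgr5 (0.0803 without mouse 2 of day 14).

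Of 25 follicle transcription factors 7 rose (28%) and 1 fell (4%), against 17.8% and 13% of all genes. The number lower was 5 with the 6 arrays of days 14 and 17 alone (15.6% of all genes were lower in that fit). It was 5 without mouse 3 of 9 weeks (14.8% of all genes) and 4 with arrays centred on their medians (24% of all genes). Zbtb16, a repressor, rose from 175, 108 and 114 to 805, 579.7 and 1078 units, and stood at 3336 ± 1266 on day 23. Its other probe set had a change of 0.089 ± 0.438 and did not pass. Foxc2, a forkhead factor of vessels and fat, rose from 60.9, 49.0 and 51.1 to 425, 488 and 613 and was at 184 ± 21.3 on day 23. Tcf7l1, which keeps outer sheath cells undifferentiated, rose from 607, 632 and 655 to 1007, 1048 and 1031. Prdm1 rose by 0.76 ± 0.18, Satb1 by 1.06 ± 0.27, Ehf by 1.28 ± 0.40 and Klf4 by 0.52 ± 0.13. Lef1, the partner of beta-catenin in the hair matrix, fell from 1705, 2126 and 2113 to 1426, 1474 and 1536. Leaving out 1 mouse ended the call of Ehf (limma adjusted p = 0.127 without mouse 2 of day 14) and Lef1 (0.0714 without mouse 2 of day 14).

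In growth factor pathways 10 of 32 tested genes rose (31.2%) and 1 fell, and those that rose were mostly binding proteins, receptors of stromal cells and vessel factors. Igfbp3, a protein that binds insulin-like growth factors, rose from 399.9, 338 and 465 to 1353, 1646 and 1395 units, by 1.88 ± 0.14 (adjusted p = 6.02e-07), and was at 2804 ± 132 on day 23. Igfbp6 rose by 1.08 ± 0.25 and Igfbp4 by 0.55 ± 0.13. The growth factor itself, Igf1, was at 1916, 1732 and 1761 on day 14 and 2161, 2221 and 2283 on day 17, and its receptor Igf1r at 858, 882 and 799 on day 14 and 1065, 1137 and 932 on day 17. Both were higher in every mouse of day 17 without passing the test, but another probe set of Igf1 was called higher, at 1.74 (limma adjusted p = 0.000644). The receptors Pdgfra and Pdgfrb of fibroblasts and pericytes rose by 0.88 ± 0.21 and 0.99 ± 0.22, and the ligand Pdgfb by 0.80 ± 0.20. Fgfr1 rose from 308, 448 and 383 to 646, 665 and 654, while Fgfr2, the epithelial receptor, fell from 2469, 2305 and 2653 to 1807, 1622 and 1677, with 0.79 and 0.85 at its other probe sets, which did not pass. Tgfa, a ligand of the EGF receptor, rose by 0.75 ± 0.28, Vegfb by 0.98 ± 0.19 and Nrp1 by 0.65 ± 0.14. In fits without 1 mouse the call was lost for Fgfr2 (limma adjusted p = 0.0993 without mouse 3 of day 14) and Tgfa (0.137 without mouse 3 of day 17).

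In the BMP and TGF-beta pathways 7 of 36 genes rose (19.4%, near the 17.8% of all genes) and 2 fell (5.56%), against 17.8% and 13% of all genes. Tgfb1, a ligand that can bring on regression, was at 33.3, 81.5 and 37.3 units on day 14 and 180.0, 196 and 59.9 on day 17. It rose by 1.46 ± 0.50, with mouse 3 of day 17 below mouse 2 of day 14. Tgfb2 was at 118, 73.4 and 82.8 on day 14 and 197, 90.4 and 189.8 on day 17 and did not pass (adjusted p = 0.142). Bmp4, a ligand of the dermal papilla, rose from 508, 691 and 588 to 994, 907 and 891, and its receptor Bmpr1a rose from 247, 276 and 308 to 569.5, 526 and 616. Inhbb, a subunit of activin B, rose by 1.11 ± 0.29, the TGF-beta binding protein Ltbp2 by 1.11 ± 0.24 and the target gene Ccn2 by 0.77 ± 0.21. The transducers Smad2 and Smad1 fell by 0.60 ± 0.15 and 0.31 ± 0.10. Noggin (Nog), an inhibitor of BMPs, was at 191, 238 and 169 on day 14 and 178, 229 and 288 on day 17 with overlapping groups. With arrays centred on their medians the list's median was -0.04 instead of 0.19. The call did not stand without 1 mouse for Tgfb1 (limma adjusted p = 0.144 without mouse 2 of day 17), Ccn2 (0.0517 without mouse 2 of day 17) and Smad1 (0.0762 without mouse 2 of day 17).

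Wnt signals drive the hair matrix, and of 36 tested genes 5 rose (13.9%) and 1 fell (2.78%), both below the shares of all genes, 17.8% and 13%. The inhibitors Sfrp2 and Sfrp4, which bind Wnt ligands, rose from 229.5, 211 and 160.2 to 487, 596 and 402 and from 24.1, 185 and 48.8 to 196, 236 and 394 units. Axin1, part of the complex that destroys beta-catenin, rose by 0.57 ± 0.18, and the receptors Fzd7 and Fzd4 by 1.29 ± 0.37 and 0.42 ± 0.13. Among 11 tested ligands only Wnt4 passed, falling from 653, 1049.9 and 1012 to 477, 619 and 539.8. Wnt5a was at 310.1, 344 and 361 on day 14 and 292, 209 and 204 on day 17, lower in every mouse without passing. The target gene Axin2 was at 184, 278 and 241 on day 14 and 183, 268 and 169 on day 17, and beta-catenin itself (Ctnnb1) at 7893, 7903 and 8084 on day 14 and 7362, 6974 and 6708 on day 17. With arrays centred on their medians 3 of the 36 genes were higher and 6 lower, where 8.84% and 24% of all genes were. With 1 mouse left out, the threshold was missed by Axin1 (limma adjusted p = 0.0787 without mouse 3 of day 17), Fzd7 (0.0757 without mouse 2 of day 14), Fzd4 (0.0857 without mouse 1 of day 17) and Wnt4 (0.057 without mouse 2 of day 14).

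Hedgehog genes did not pass in either direction in the fit of 18 arrays, 0 of 8 in limma at an adjusted p under 0.05 and 1 at an unadjusted p under 0.05. In each of 3 other fits 1 gene was lower: after quantile normalization, with the 6 arrays alone and without mouse 3 of 9 weeks. With arrays centred on their medians 2 were lower (24% of all genes). Shh, the matrix signal that keeps the follicle growing, was at 334, 288 and 280.4 units on day 14 and 256, 200.3 and 443 on day 17, with mouse 3 of day 17 the highest of all. Its target and receptor Ptch1 was at 542, 629 and 549 on day 14 and 507, 495 and 403 on day 17, and the target Gli1 had means of 334 ± 123 and 164 ± 31.2 (SD, n = 3). Every mouse of day 17 was below every mouse of day 14 for both, with changes of -0.30 ± 0.15 and -0.97 ± 0.40. Another probe set of Ptch1 had a change of 0.036 ± 0.219 and did not pass. By day 23 Shh was at 82.5 ± 43.4 units.

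In the Notch pathway Notch1, the receptor of the hair matrix and upper epidermis, fell from 2224, 2909.7 and 2753 to 1534, 1853 and 1543, and Notch2 rose from 243, 241 and 276 to 461, 433 and 378. Notch4, a receptor of vessels, rose by 1.03 ± 0.36 and the target Hey1 by 0.71 ± 0.19. Of 14 tested genes 3 rose (21.4%) and 1 fell (7.14%), against 17.8% and 13% of all genes. The other 10 did not pass. Of 4 tested genes of the neurotrophin and GDNF families 3 rose, against 17.8% of all genes. They were Gdnf, from 148, 156 and 185 to 340.2, 285 and 334, neurturin (Nrtn) by 0.66 ± 0.13 and the receptor Gfra2 by 1.20 ± 0.22. Relative to day 14 the median of the 4 was 0.693 on day 1, 0.817 on day 17, 0.642 on day 23 and 0.777 at 5 months, the dimmer ages. It was 0.274 on day 6, 0.291 at 9 weeks and 0.286 at 1 year, the brighter ages. The part of array brightness was not tested. A single mouse left out ended the call of Notch4 (limma adjusted p = 0.169 without mouse 1 of day 17).

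**Figure D4:**
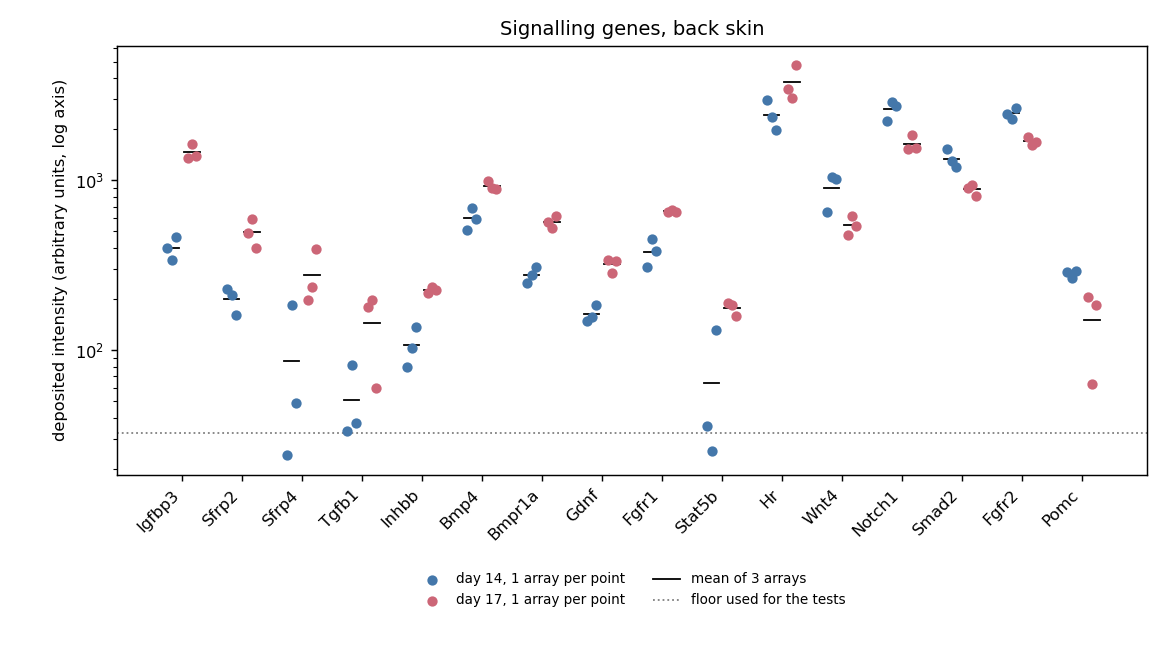
Deposited intensity of 16 signalling genes on a log axis. Each point is 1 array, the bars are means of 3 arrays and the dotted line is the floor of 32.7 units. Igfbp3, Sfrp2, Bmp4, Bmpr1a, Gdnf and Fgfr1 lie higher on day 17 without overlap, Tgfb1 overlaps through mouse 3, and Wnt4, Notch1, Smad2, Fgfr2 and Pomc lie lower.

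Among hormones and nuclear factors linked to regression 6 of 19 rose (31.6%) and 2 fell. Hairless (Hr), a corepressor without which the follicle fails to regress in order, rose from 2971, 2372 and 1976 to 3464, 3071 and 4778 units. Its partner in the nucleus, the vitamin D receptor Vdr, was at 594, 671 and 597 on day 14 and 701, 759 and 680.4 on day 17 and did not pass, while the shared partner Rxra rose by 0.43 ± 0.12. Stat5b was at 35.5, 25.4 and 132 on day 14 and 190.2, 184 and 159.6 on day 17 and rose by 1.73 ± 0.56, and Stat3 and Stat5a did not pass, with changes of 0.34 ± 0.15 and -0.05 ± 0.16. Pth1r, the receptor of parathyroid hormone-related protein, rose by 0.94 ± 0.24. Of the local stress axis, Pomc, the precursor of ACTH and melanocortins, fell from 289, 266 and 294 to 205, 62.9 and 184, and Crhr1, the receptor of corticotropin-releasing hormone, from 144, 174 and 98.6 to 48.2, 60.1 and 44.3. With arrays centred on their medians 2 of the 19 rose, where 8.84% of all genes did. Calls that 1 mouse could end were those of Hr (limma adjusted p = 0.187 without mouse 3 of day 17), Rxra (0.0652 without mouse 3 of day 17), Stat5b (0.122 without mouse 2 of day 14), Pomc (0.175 without mouse 2 of day 17) and Crhr1 (0.0583 without mouse 2 of day 14).

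Apoptosis removes the lower follicle in regression. Of 39 tested genes 14 rose (35.9%, against 17.8%) and 3 fell, with a median of 0.32. In the fit of 18 arrays, members that promote and that restrain cell death rose side by side. Of 12 BCL2 family genes 7 rose and none fell: the killers Bcl2l11, Bok and Bnip3 by 0.53 ± 0.16, 0.44 ± 0.16 and 0.92 ± 0.25, and the protectors Bcl2 and Mcl1 by 0.53 ± 0.18 and 0.50 ± 0.12. Bcl2 was at 789.6, 527 and 807 units on day 14 and 988, 976 and 1040.0 on day 17. Bcl2l11, Bok and Bcl2 missed the threshold both after quantile normalization and with arrays centred on their medians. Mcl1 missed it with centred arrays. The stress factor Ddit3 (CHOP) rose from 47.8, 42.3 and 51.2 to 239, 153 and 245, by 2.15 ± 0.36. Tradd, an adaptor of the TNF receptor, was at 2256, 313 and 2404 on day 14 and 4047, 5922 and 4075 on day 17, and mouse 2 of day 14 stood far below the other mice of its age. Casp4, the inflammatory caspase, rose by 1.33 ± 0.28, and the mitochondrial death factors Endog and Aifm1 by 1.46 ± 0.33 and 1.11 ± 0.14. The p53 targets Mdm2 and Ccng1 rose by 1.20 ± 0.13 and 1.08 ± 0.21, while Gadd45a and Perp fell by 0.75 ± 0.24 and 0.60 ± 0.09. After quantile normalization Perp was at 0.08. Casp2 fell by 0.56 ± 0.11, and its other probe set rose by 0.50. With arrays centred on their medians 10 genes were higher and 4 lower, where 8.84% and 24% of all genes were. Leaving out 1 mouse ended the call of Bcl2l11 (limma adjusted p = 0.0938 without mouse 2 of day 14), Bok (0.201 without mouse 3 of day 17), Bcl2 (0.193 without mouse 2 of day 14), Tradd (0.0519 without mouse 2 of day 17) and Gadd45a (0.106 without mouse 2 of day 14).

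The dermal papilla list had 6 of 15 genes higher (40%) and 1 lower. Apart from Igfbp3, Igfbp4, Bmp4, Hey1 and Lef1, given above, these were the proteoglycan versican (Vcan) and prominin (Prom1), which rose by 0.81 ± 0.23 and 1.12 ± 0.27. The list's median was 0.20, and -0.03 both after quantile normalization and with arrays centred on their medians. In fits without 1 mouse the call was lost for Vcan (limma adjusted p = 0.0554 without mouse 1 of day 17).

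Of 59 tested dermal matrix genes 28 rose (47.5%) and none fell, with a median of 0.42. With arrays centred on their medians 18 rose and 4 fell, where 8.84% and 24% of all genes did. Small proteoglycans, which space collagen fibrils, had 6 of 7 higher: decorin (Dcn) went from 5952, 5799.8 and 5782 to 11500.4, 10798 and 10449 units, and Lum, Ogn and Bgn rose by 0.67 ± 0.13, 0.65 ± 0.17 and 0.38 ± 0.14. Dermatopontin (Dpt) rose from 329.6, 395 and 325 to 862, 620.3 and 735. The elastic fibre genes Mfap5 and Eln rose by 0.92 ± 0.17 and 0.57 ± 0.09. Of 6 fibrillar collagens 1 passed, Col5a2 at 0.43 ± 0.13. This count depends on the probe set taken for a gene, since both other probe sets of Col3a1 were called higher, at 1.03 and 0.82, as was another of Col5a1, at 0.60. The collagen-processing enzymes Pcolce and Lox rose by 1.04 ± 0.18 and 0.77 ± 0.20. Spock2, a proteoglycan of the extracellular space, had the largest rise of the list, from 31.9, 35.6 and 29.8 to 279, 281 and 302, and 2 of the 3 mice of day 14 were below the floor. Relative to day 14 the list's median was 0.62 on day 6, in the brighter set of arrays, and 0.98 on day 1 and 0.93 on day 23, in the dimmer set. The call did not stand without 1 mouse for Bgn (limma adjusted p = 0.173 without mouse 1 of day 14) and Col5a2 (0.0646 without mouse 3 of day 14).

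Of 20 matrix proteases and their inhibitors 11 rose (55%) and 2 fell. With arrays centred on their medians 6 were higher and 2 lower, where 8.84% and 24% of all genes were. Mmp11, the stromelysin of remodelling stroma, rose from 146, 71.5 and 65.2 to 443, 328 and 492 units and was at 123 ± 25.4 on day 6 and 108 ± 27.7 on day 23. Its mean was highest on day 17 among these ages. Mmp3 rose from 113, 108 and 155 to 379, 267 and 364 and went on to 1464 ± 199.9. Mmp12 of macrophages and the membrane protease Mmp14 rose by 0.87 ± 0.30 and 0.42 ± 0.11, the plasminogen activator Plau by 0.96 ± 0.26 and cathepsin K (Ctsk) by 0.84 ± 0.14. The inhibitors Timp2 and Timp3 rose too, by 0.69 ± 0.22 and 0.44 ± 0.15. Cathepsin B (Ctsb) and Serpinb2 fell by 0.49 ± 0.08 and 0.51 ± 0.13. After quantile normalization Ctsb was at 0.02. With 1 mouse left out, the threshold was missed by Mmp12 (limma adjusted p = 0.186 without mouse 3 of day 14), Plau (0.0509 without mouse 1 of day 14), Timp2 (0.101 without mouse 3 of day 17) and Timp3 (0.153 without mouse 2 of day 14).

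Genes of macrophages and dendritic cells rose in 12 of 21 cases (57.1%) and fell in none, with a median of 0.79. Lysozyme (Lyz2) went from 321, 274 and 279 units on day 14 to 808, 865 and 730.0 on day 17. The receptor Csf1r, on which macrophages depend, rose from 737, 685 and 827 to 1338, 1204 and 1219, and Cd14 from 657, 566 and 543 to 1476, 1224 and 1237. Mrc1, the mannose receptor of resident macrophages, was at 127, 139 and 58.4 on day 14 and 246, 246 and 234 on day 17. None of these groups overlapped. The complement subunits C1qa, C1qb and C1qc rose by 0.71 ± 0.24, 1.23 ± 0.29 and 0.84 ± 0.22. On day 23 Lyz2 stood at 2115 ± 119 and Mrc1 at 676 ± 146. After quantile normalization 9 of the list were higher and 1 lower, where 13.9% and 14.8% of all genes were. A single mouse left out ended the call of C1qa (limma adjusted p = 0.13 without mouse 3 of day 17).

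Antigen presentation by class II molecules and the interferon response are carried by immune cells and keratinocytes. Of 9 class II genes 4 rose (44.4%, against 17.8% of all genes). The invariant chain Cd74 was at 3854, 2559 and 2461 units on day 14 and 5072, 5956 and 5151 on day 17. H2-Aa and H2-Ab1 rose by 0.76 ± 0.20 and 0.70 ± 0.18. Of 35 interferon response genes 18 rose (51.4%) and 1 fell. Beta-2 microglobulin (B2m), the light chain of class I, rose from 3646, 3292 and 2235 to 6975, 7093 and 6323. Psmb9 and Psmb8, the subunits that interferon places into the immunoproteasome, rose by 1.95 ± 0.49 and 0.89 ± 0.23, with mouse 1 of day 14 at 175 units of Psmb9 and the other mice of that age at 34.3 and 30.7. The GTPases Gbp2 and Igtp rose by 1.47 ± 0.40 and 1.23 ± 0.35, and the receptor chains Ifngr1 and Ifnar2 by 1.19 ± 0.29 and 1.12 ± 0.25. H2-M3, a class I molecule that presents formyl peptides, rose from 82.1, 44.4 and 138 to 481, 378 and 298 and was among the 15 largest increases. The number of interferon genes higher was 12 after quantile normalization (13.9% of all genes were higher) and 11 with arrays centred on their medians (8.84% of all genes). Calls that 1 mouse could end were those of Gbp2 (limma adjusted p = 0.0644 without mouse 3 of day 14) and Igtp (0.0742 without mouse 2 of day 14).

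Lists of other blood cells were short. Of 8 B cell genes 4 rose (50%, against 17.8% of all genes): Pax5 from 60.5, 119 and 38.9 to 254, 233 and 329 units, Cd79a by 1.45 ± 0.45, Ms4a1 by 1.00 ± 0.32 and Ighm by 0.64 ± 0.23. Of 7 T cell genes Cd4 alone rose, by 1.52 ± 0.48. Mast cell Cpa3 and Tpsb2 rose by 1.02 ± 0.23 and 0.42 ± 0.14. S100a8 and S100a9, carried by neutrophils and by keratinocytes under stress, fell: S100a8 was at 1264, 1543 and 1378 on day 14 and 731, 715 and 782 on day 17. The neutrophil genes Csf3r and Elane rose by 1.41 ± 0.29 and 0.99 ± 0.27. Endothelial Tie1, Sox17, Cldn5 and Cdh5 rose by 1.24 ± 0.24, 1.25 ± 0.16, 0.95 ± 0.15 and 0.82 ± 0.16, 4 of 21 (19%), a share near the 17.8% of all genes, and none of that list fell. Leaving out 1 mouse ended the call of Pax5 (limma adjusted p = 0.0646 without mouse 3 of day 14), Cd79a (0.12 without mouse 2 of day 14), Ms4a1 (0.136 without mouse 3 of day 17), Ighm (0.137 without mouse 2 of day 17), Cd4 (0.128 without mouse 2 of day 14), Tpsb2 (0.108 without mouse 1 of day 17), S100a9 (0.135 without mouse 3 of day 17) and Elane (0.0661 without mouse 2 of day 17).

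The fat layer of the skin thickens in hair growth and thins afterwards, and fat cell genes mostly read higher on day 17. Of 33 white fat genes 14 rose (42.4%) and 1 fell, with a median of 0.55. Slc2a4, the insulin-responsive glucose transporter of fat and muscle, rose from 36.0, 46.9 and 31.8 to 193, 222 and 185 units. Adipoq rose from 1707, 1402 and 1577 to 3348, 3303 and 3935, and stood at 4616 ± 396 on day 6 and 6664 ± 955 on day 23. The factor Pparg, which makes fat cells, rose by 1.12 ± 0.28, and the lipid enzymes and carriers Lpl, Cd36 and Fabp4 by 1.14 ± 0.19, 0.90 ± 0.24 and 0.76 ± 0.22. The single white fat gene that fell was Cebpb, by 0.31 ± 0.09. In fits without 1 mouse the call was lost for Fabp4 (limma adjusted p = 0.0711 without mouse 2 of day 14).

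Of 9 brown fat genes 5 rose (55.6%, against 17.8% of all genes). Ucp1, the uncoupling protein of brown fat, was at 8.7, 14.4 and 5.9 units on day 14, all below the floor, and at 263, 575 and 716 on day 17, at least 14.6-fold higher. It was at 238 ± 174 on day 6 and 226 ± 194 on day 23, where mice differed widely. Cox7a1, a cytochrome oxidase subunit of muscle and brown fat, rose from 78.4, 62.3 and 54.0 to 191, 184 and 284, and Fabp3 by 1.68 ± 0.29. Fatty acid oxidation had 7 of 19 genes higher (36.8%) and 3 lower (15.8%), against 17.8% and 13% of all genes. Pdk4, which turns fuel use towards fat, rose by 1.73 ± 0.43, and Acads and Acadl by 1.20 ± 0.14 and 0.93 ± 0.25. Acaa2 and Cpt2 fell by 0.61 ± 0.10 and 0.32 ± 0.09. The call did not stand without 1 mouse for Cpt2 (limma adjusted p = 0.0507 without mouse 1 of day 17).

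Skeletal muscle genes rose in 28 of 53 cases (52.8%) and none fell, with a median of 0.69. The fast myosin Myh4 went from 4665, 4525 and 3364 units on day 14 to 10966, 10001 and 8570.0 on day 17, and the calcium channel Ryr1 from 269.9, 366 and 292 to 1063, 751 and 993. Neither overlapped. Energy genes of muscle had 7 of 8 higher, among them Ckmt2 (from 265, 211 and 264 to 852, 794 and 799 units), Pygm by 1.20 ± 0.14 and Pgam2 by 1.04 ± 0.14. The regulator Mef2c rose by 1.93 ± 0.32. The perinatal myosin Myh8 fell from 282, 349 and 289.6 to 95.2, 123 and 133, the single member of 7 developing muscle genes that passed. Relative to day 14 the muscle list's median was 1.11 on day 1, 0.69 on day 17, 1.64 on day 23 and 1.79 at 5 months, in the dimmer set of arrays. It was 0.00 on day 6, 2.27 at 9 weeks and 1.85 at 1 year, in the brighter set. With arrays centred on their medians 19 muscle genes rose, where 8.84% of all genes did. How much muscle came with each piece of skin was not tested.

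Cholesterol synthesis fell in 7 of 17 genes (41.2%) and 1 rose (5.88%), with a median of -0.63. Idi1, an isomerase of the isoprene branch, went from 1626, 1753 and 1714 units to 734, 697 and 515. Sqle, the squalene epoxidase, went from 3194, 3439 and 2933 to 1353, 1605 and 1385, and Fdft1 and Ebp fell by 0.83 ± 0.16 and 0.66 ± 0.20. Fdps fell by 1.26 ± 0.14, another of its probe sets fell by 1.61 and the last rose by 1.43. Sc5d, a late desaturase, rose by 1.10 ± 0.36. Of 8 genes of sterol regulation, uptake or export 4 rose (50%) and 2 fell (25%), against 17.8% and 13% of all genes. The transporters Abca1 and Abcg1 rose by 0.71 ± 0.17 and 0.69 ± 0.20, and neither was called with arrays centred on their medians. Another probe set of Abca1 had a change of -0.34 and did not pass. Their regulator Nr1h3 rose by 1.19 ± 0.22, and the lysosomal lipase Lipa from 41.9, 28.6 and 43.7 to 163, 146 and 198. Apoe, a sterol carrier, fell by 0.75 ± 0.11 and was at 0.19 after quantile normalization. With 1 mouse left out, the threshold was missed by Ebp (limma adjusted p = 0.118 without mouse 1 of day 14), Sc5d (0.144 without mouse 2 of day 17) and Abcg1 (0.0573 without mouse 3 of day 14).

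Ribosomes are built in the nucleolus. Ribosome biogenesis had 21 of 32 genes lower (65.6%, against 13%) and none higher, with a median of -0.58. Utp14a, a part of the small-subunit processome, had the largest fall among called genes without overlap, from 191, 246 and 299 to 52.9, 62.4 and 46.7 units. Nop56, a core protein of the complexes that methylate ribosomal RNA, fell from 914, 1234 and 978 to 397, 490.0 and 372, and Npm1, Ncl and Fbl, the main proteins of the nucleolus, by 1.18 ± 0.18, 0.92 ± 0.14 and 0.71 ± 0.10. The counts of lower genes in this list were 22 after quantile normalization (14.8% of all genes were lower) and 25 with arrays centred on their medians (24% of all genes). Mitochondrial ribosomal proteins fell in 20 of 56 cases (35.7%) and rose in none, with Mrpl12 and Mrps12 down by 1.41 ± 0.21 and 1.12 ± 0.33. Relative to day 14 their median was -0.125 on day 1, -0.276 on day 17, -0.131 on day 23 and -0.23 at 5 months, in the dimmer set of arrays. It was 0.047 on day 6, -0.115 at 9 weeks and 0.085 at 1 year, in the brighter set. The part of array brightness in this fall was not tested. Mrpl18 fell by 1.06 ± 0.09, and its other probe set rose by 0.44. A single mouse left out ended the call of Mrps12 (limma adjusted p = 0.0825 without mouse 2 of day 17).

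Ribosomal proteins fell in 19 of 27 cases (70.4%) and rose in 2, with a median of -0.71. Rps24 and Rpl38 fell by 1.09 ± 0.10 and 1.08 ± 0.35, and Rps27 and Rpl37a rose by 0.50 ± 0.12 and 0.39 ± 0.12. Their level followed the split in array brightness across all ages. Relative to day 14, the median was -0.55 on day 1, -0.71 on day 17, -0.81 on day 23 and -0.57 at 5 months, the dimmer ages. It was -0.10 on day 6, -0.24 at 9 weeks and -0.09 at 1 year, the brighter ages. After quantile normalization 9 of the 27 were lower and the median was -0.17, and with probe sets of a gene averaged 14 were lower. Array processing and age cannot be told apart here. Translation factors fell in 14 of 43 cases (32.6%, against 13% of all genes) and rose in 4 (9.3%, against 17.8%). Eif2s3x and Eef1d were at -1.12 ± 0.19 and -1.05 ± 0.12. Calls that 1 mouse could end were those of Rpl38 (limma adjusted p = 0.118 without mouse 3 of day 17) and Rpl37a (0.0737 without mouse 2 of day 14).

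**Figure D5:**
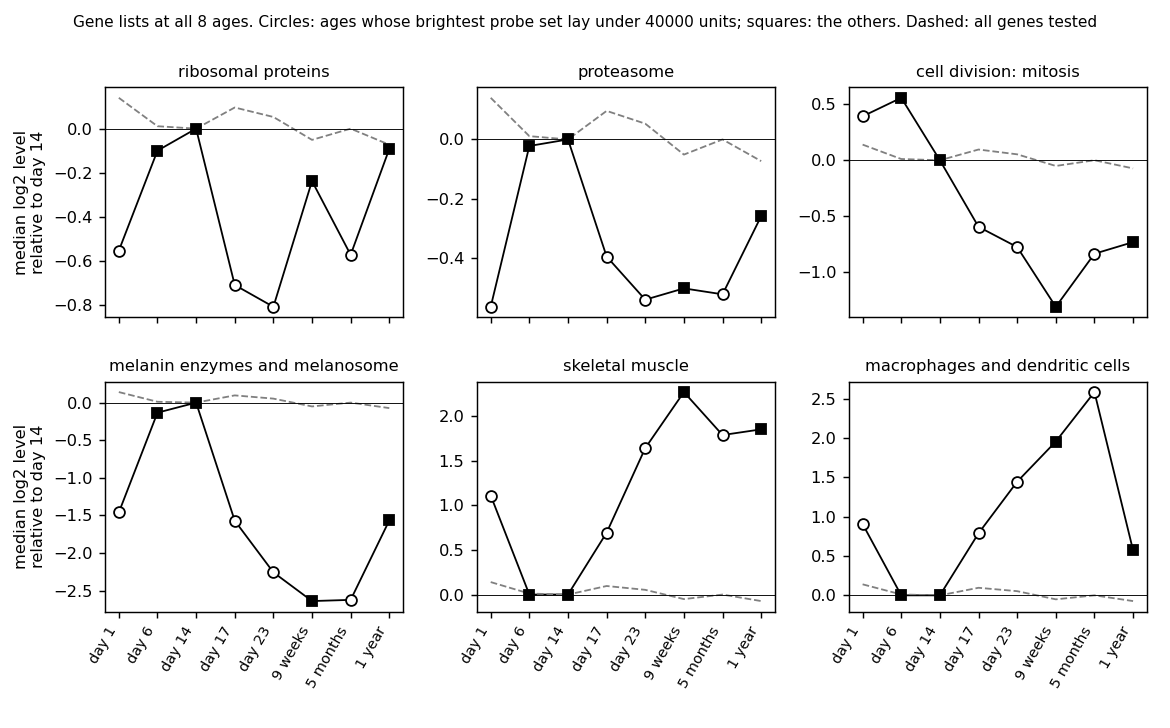
Median log2 level of 6 groups of genes at the 8 ages of the series, relative to day 14, with the median of all genes dashed. Open circles are the ages whose brightest probe set lay between 22033.5 and 36049 units and filled squares the others. Ribosomal proteins are lower at every age drawn as a circle than at every age drawn as a square, and the mitosis, melanin, muscle and macrophage groups do not divide that way.

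The proteasome, which degrades tagged proteins, had 19 of 35 genes lower (54.3%) and 3 higher, with a median of -0.39. The core subunits Psmb6 and Psma7 fell by 1.12 ± 0.13 and 0.96 ± 0.09 and the cap ATPases Psmc6 and Psmc3 by 1.07 ± 0.21 and 0.88 ± 0.10. Of the 3 that rose, Psmb9 and Psmb8 are the immune subunits given above, and Psmd9 is an assembly chaperone. Relative to day 14 the list's median was -0.02 on day 6 and between -0.56 and -0.26 at the other ages. Oxidative phosphorylation had 30 of 69 genes lower (43.5%) and 5 higher. Complex III and cytochrome c genes fell in 6 of 9 cases, among them Uqcrc1 and Uqcrq at -0.71 ± 0.08 and -0.61 ± 0.09. Complex IV had 4 lower and 4 higher of 13, and Cox7a1 and Cox6a2, both forms of muscle and brown fat, were among the higher ones. Atp5g2 and Atp5l fell by 0.95 ± 0.12 and 0.50 ± 0.09, and another probe set of each rose. Relative to day 14 the median of complex V genes was -0.194 on day 1, -0.433 on day 17, -0.224 on day 23 and -0.079 at 5 months, the dimmer ages. It was -0.014 on day 6, 0.247 at 9 weeks and 0.4 at 1 year, the brighter ages. The part of array brightness was not tested. Leaving out 1 mouse ended the call of Psmd9 (limma adjusted p = 0.133 without mouse 2 of day 17) and Cox6a2 (0.0786 without mouse 1 of day 14).

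Protein folding genes were divided. The cytosolic chaperonin subunits Cct3, Cct7 and Cct5 fell by 1.20 ± 0.11, 0.85 ± 0.12 and 0.50 ± 0.10 and Cct2 rose by 0.66 ± 0.14. The chaperones Hspa8 and Hsp90aa1 fell by 0.68 ± 0.15 and 0.65 ± 0.16. The heat-induced Hspa1a and Hspa1b, near-identical copies, rose by 0.50 ± 0.14 and 0.56 ± 0.10, as did Dnajb9 of the endoplasmic reticulum stress response, by 1.43 ± 0.23. In all 9 of 31 rose (29%) and 8 fell (25.8%), against 17.8% and 13% of all genes. With arrays centred on their medians 3 rose and 14 fell, where 8.84% and 24% of all genes did. In fits without 1 mouse the call was lost for Hspa1a (limma adjusted p = 0.0588 without mouse 2 of day 17).

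The clock runs in skin cells as a loop of activators and repressors. Arntl (BMAL1), the activator, rose from 423, 301 and 447 to 677, 716 and 652 units. Some of its targets and repressors rose as well: Per1 from 381, 522 and 418 to 688, 765 and 734, Nr1d1 by 0.50 ± 0.18, Nr1d2 by 0.55 ± 0.13 and Nfil3 by 0.67 ± 0.22. The output factor Tef fell from 1799, 1579.5 and 1304 to 804, 1019 and 914, and Dbp was at 9.4, 42.1 and 17.2 on day 14 and 7.6, 34.2 and 23.8 on day 17. The kinases Csnk1d and Csnk1e fell by 0.81 ± 0.14 and 0.51 ± 0.18. Of 16 tested genes 5 rose (31.2%, against 17.8% of all genes), 3 fell (18.8%, against 13%) and 8 did not pass. After quantile normalization 3 rose and 5 fell, where 13.9% and 14.8% of all genes did. The labels do not state the hour at which skin was taken. The call did not stand without 1 mouse for Nr1d1 (limma adjusted p = 0.187 without mouse 2 of day 14), Nfil3 (0.11 without mouse 1 of day 14) and Csnk1e (0.142 without mouse 1 of day 14).

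Genes of the glucocorticoid response list, which holds targets and genes of metabolism, rose in 9 of 22 cases (40.9%) and fell in 2. Beside Zbtb16, Pdk4 and Per1, the phosphatase Dusp1 rose from 603, 713 and 523 to 2022, 1613 and 1622, the factor Klf9 by 0.73 ± 0.12 and the kinase Sgk1 by 0.59 ± 0.11. The receptor Nr3c1 was at 105, 81.8 and 69.4 on day 14 and 108, 132 and 94.9 on day 17 and did not pass. The metallothionein Mt2 fell by 0.98 ± 0.16, and the cochaperone Fkbp4 by 0.65 ± 0.10, with its other probe set up by 0.66. After quantile normalization and with arrays centred on their medians, 9 genes were higher as well, where 13.9% and 8.84% of all genes were.

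Of 31 epidermal differentiation genes 7 rose (22.6%) and 4 fell (12.9%), shares near those of all genes. Krt1 and Krt10, the keratins of the spinous layers, rose from 979, 891 and 971 to 1384, 1913 and 1582 and from 9298, 8239 and 8836 to 12441, 12199.8 and 12549 units. Alox12b, which builds the lipid barrier, rose from 197, 195 and 219.6 to 413, 408 and 503, and its partner Aloxe3 by 0.53 ± 0.16. Sprr2g rose by 1.54 ± 0.20 and Casp14 by 0.86 ± 0.27. Involucrin (Ivl), a scaffold of the cornified envelope, fell from 1153, 1056 and 1229.9 to 541, 514 and 415, and Cldn4 and Ppl fell by 0.77 ± 0.20 and 0.30 ± 0.09. On day 23 Krt1 was at 5771 ± 1324 and Ivl at 134 ± 29.9. With 1 mouse left out, the threshold was missed by Aloxe3 (limma adjusted p = 0.0948 without mouse 3 of day 17), Casp14 (0.124 without mouse 3 of day 14) and Ppl (0.0995 without mouse 3 of day 17).

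Cell junctions of the epithelium fell in 4 of 13 cases (30.8%, against 13% of all genes) and rose in none. Gja1 (connexin 43), a gap junction protein, went from 20912, 21702 and 22983 to 13345, 11878 and 11828 units, and the desmosome proteins Dsp and Pkp2 fell by 0.63 ± 0.19 and 1.00 ± 0.22. Gjb2 (connexin 26) was at 20256, 23095 and 23914 on day 14 and 10704, 9950.3 and 9563 on day 17, without overlap, and did not pass, with a change of -1.15 ± 0.84. It was at 276 ± 53.9 on day 23. After quantile normalization 2 of the list were lower and 2 higher, where 14.8% and 13.9% of all genes were. A single mouse left out ended the call of Gja1 (limma adjusted p = 0.0747 without mouse 3 of day 17) and Dsp (0.0671 without mouse 3 of day 14).

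Retinoid genes had 4 of 10 higher (40%) and 1 lower (10%), against 17.8% and 13% of all genes. Aldh1a1, which makes retinoic acid, rose from 139.5, 119 and 104 to 324, 297 and 366 units and reached 1610.4 ± 325 on day 23, and the carrier Rbp4 rose by 1.93 ± 0.40. The uptake receptor Stra6 fell from 326, 434 and 344 to 173, 120.0 and 131.

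Of the 15 largest increases among genes whose groups did not overlap, Ucp1, Foxc2, Spock2, Krtap6-3, Zbtb16, Slc2a4, H2-M3 and Mmp11 are given above. The protease Ctrl was at 25.8, 26.1 and 23.3 units on day 14, all below the floor, and at 259, 223 and 266 on day 17. The iron hormone hepcidin (Hamp) was below the floor in every mouse of day 14 and at 181, 226 and 182 on day 17. Glycam1, a mucin of high endothelial vessels and milk, was also below the floor on day 14 and at 156, 449.6 and 154 on day 17, where mouse 2 was well above the others. A4galt, which makes the glycolipid Gb3, rose from 162, 161 and 166 to 878, 743 and 1145 and was at 416 ± 92.5 on day 23. Lgi4, a Schwann cell signalling protein, rose by 2.61 ± 0.73, Mapre2, a microtubule end-binding protein, by 2.29 ± 0.41 and Cuedc1 by 2.27 ± 0.45. Calls that 1 mouse could end were those of Glycam1 (limma adjusted p = 0.102 without mouse 2 of day 17) and Lgi4 (0.0516 without mouse 2 of day 17).

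Of the 15 largest decreases, Utp14a, Tyrp1 and Mycn are given above. Zbtb17, a Myc-binding factor also known as Miz1, fell from 340.1, 336 and 311 to 71.6, 73.8 and 76.6 units. Chaf1b, of the complex that places histones on new DNA, fell from 232, 287 and 320.2 to 45.2, 51.1 and 163, and mouse 3 of day 17 was above the other mice of its age. Saa3, an acute-phase protein, fell from 275, 244 and 223 to 115, 80.3 and 38.1 and was at 23.2 ± 5.76 on day 6. Mre11a, a nuclease of DNA repair, fell by 1.91 ± 0.44, and the integrator subunit Ints9 fell by 1.93 ± 0.39. The nuclear pore protein Nup54 had a change of -2.03 ± 0.56, the complex III assembly factor Uqcc1 of -2.03 ± 0.33 and the bile acid receptor Nr1h4 of -2.05 ± 0.32. The ATP-binding cassette proteins Abcb10 and Abcf2 had changes of -2.02 ± 0.57 and -1.99 ± 0.54, the sialyltransferase St8sia5 of -1.85 ± 0.37 and Arl2bp of -1.82 ± 0.59. Leaving out 1 mouse ended the call of Saa3 (limma adjusted p = 0.121 without mouse 3 of day 17), Nup54 (0.0578 without mouse 2 of day 14), Abcb10 (0.0571 without mouse 1 of day 17), Abcf2 (0.0626 without mouse 2 of day 14) and Arl2bp (0.0822 without mouse 2 of day 17).

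Levels on day 23 can be set beside these changes, although both comparisons share the arrays of day 17. Igfbp3, Zbtb16, Col17a1, Lyz2, Myh4 and Adipoq had a higher mean on day 23 than on day 17. Bmp4, Inhbb, Bmpr1a, Tgfa, Hr and Prdm1 did not: Bmp4 had means of 596 ± 91.8, 930.4 ± 55.2 and 513 ± 23.0 units on days 14, 17 and 23, and Bmpr1a of 277 ± 30.5, 571 ± 44.7 and 271 ± 35.6. Tgfa had means of 375 ± 28.3, 632 ± 53.5 and 159 ± 15.7, and Inhbb of 107 ± 28.7, 225 ± 9 and 66.8 ± 17.9. Among these 3 ages the means of those genes were highest on day 17.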

How the data were processed

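Total RNA of whole back skin was hybridised to 25 arrays of 8 ages, and the 6 arrays of days 14 and 17 were compared. The authors deposited 1 linear intensity per probe set and array, and the mean without the lowest and highest 2% lay between 500.23 and 500.36 on every array. How the scans were turned into these intensities was not stated in the labels or files.

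Of 12488 probe sets 66 controls were left out. Deposited intensities under 32.7, the 20th percentile, were set to that floor before the log2 was taken. Probe sets above 127.8, the 40th percentile, on at least 3 of the 25 arrays were tested, 8835 in all. The 18 arrays of 6 ages up to 9 weeks were fitted together in limma 3.58.1 (R 4.3.3) with an intensity trend, and p-values were adjusted by Benjamini-Hochberg over all probe sets. A call is an adjusted p under 0.05. The fit was checked on simulated data. Each gene was represented by its tested probe set of highest mean. Probe sets were named through the platform annotation given here: 10833 had 1 symbol, 396 several and 1193 none, and 10817 symbols matched the RefSeq gene table. Nothing in the labels says that mice were pooled or independent, so p-values measure the spread between arrays.

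The members and gene lists were chosen with earlier results of these data known. Genes named are the 15 largest increases and 15 largest decreases called without overlap, up to 4 called genes of largest change per list and role, measured members of the signalling, clock, apoptosis and hair shaft lists, up to 4 genes of highest mean that did not pass in lists with fewer than 4 calls, and the sex markers. Outside this rule, and chosen after their values were seen, are Abcg1, Acaa2, Atp5l, Bgn, Bub1, C1qa, C1qc, Cct5, Cd14, Cd34, Cd36, Cdk1, Cdk4, Ckm, Cks1b, Col17a1, Col3a1, Col5a1, Cpt2, Csf1r, Ctsb, Dlx3, Ebp, Fabp4, Fbl, Fdft1, Fen1, Fkbp4, Foxn1, Gjb2, Hsp90aa1, Hspa1a, Hspa1b, Itgb4, Kit, Klf4, Klf9, Krt10, Lamb3, Lef1, Mc1r, Mitf, Mki67, Mmp14, Msx2, Mt2, Ncl, Ogn, Pcna, Ppl, Prdm1, Psma7, Psmc3, Psmd9, Rpl37a, Rps27, Serpinb2, Sgk1, Tcf7l1, Timp2, Timp3, Tk1, Trp63 and Tyr. Of the listed genes 184 were on the array below the filter and 286 were not named on it. Alternatives were quantile normalization, centring arrays on their medians, another floor, a pseudocount of 32, no filter, no trend, only the 6 arrays, all 25 arrays, averaged probe sets, a replicate block and leaving out arrays in turn.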

Additional observations from a re-analysis of the deposited data

How the results depend on the processing

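The counts of higher and lower probe sets (1574 and 1097) stayed within 1.5 times under every alternative run except centring arrays on their medians, which gave 792 higher and 1992 lower. Without 1 mouse of day 14 or 17 they ranged from 1110 to 1345 higher and from 841 to 919 lower. The labels do not say whether same-numbered mice of the ages have more than a number in common. The correlations of their deviations from the group means were -0.032, -0.0085 and 0.025, and those of differently numbered mice lay between -0.0301 and 0.0397. With 3 arrays per age these values cannot settle whether mice were paired. A replicate block gave 1520 higher and 1074 lower. Of 315 genes named in the text, 284 kept their result after quantile normalization and 261 with centred arrays. The number was 283 with the floor at the 40th percentile, 286 with no filter on dim probe sets, 264 with all 25 arrays and 309 with the replicate block. A called gene kept its result when direction and call stayed. The 42 genes not called kept theirs when they again did not pass, whatever the sign. After quantile normalization 3 called genes lost the call and their estimates turned sign, Apoe at 0.185, Ctsb at 0.016 and Perp at 0.083, and Bub1 lost its call at 0.000 with the higher floor. The inner root sheath median became 0.13 after quantile normalization, and the dermal papilla median became -0.03 after it and -0.027 with centred arrays. The medians of the Wnt, BMP and TGF-beta, Notch, Hedgehog, clock, follicle transcription factor, smooth muscle and developing muscle lists also passed below 0 with centred arrays. The cause of these shifts was not tested. Beside Apoe, Ctsb and Perp, genes that missed the threshold after quantile normalization were Aloxe3, Bcl2, Bcl2l11, Bok, C1qa, Cd36, Cebpb, Dsp, Ehf, Fgfr2, Gja1, Ighm, Krt17, Mmp12, Mybl2, Nfil3, Notch4, Nr1d1, Ppl, Psmd9, Rps24, Sc5d, Smad1, Stat5b, Tgfa and Tgfb1. Those that missed it with centred arrays were Abca1, Abcg1, Aloxe3, Axin1, Bcl2, Bcl2l11, Bgn, Bok, C1qa, Casp14, Ccn2, Cdkn1c, Col5a2, Cox6a2, Ehf, Fabp4, Fzd4, H2-Ab1, Hey1, Hr, Hspa1a, Igfbp4, Ighm, Itgb4, Klf4, Krt10, Mcl1, Mmp12, Mmp14, Ms4a1, Mybl2, Nfil3, Notch4, Nr1d1, Nr1d2, Ogn, Psmd9, Rpl37a, Rps27, Rxra, Sc5d, Tgfa, Tgfb1, Timp2, Timp3, Tpsb2 and Vcan. Those that missed it without 1 mouse were Abcb10, Abcf2, Abcg1, Aloxe3, Arl2bp, Axin1, Bcl2, Bcl2l11, Bgn, Bok, Bub1, C1qa, Casp14, Ccn2, Cd4, Cd79a, Cdk1, Cdkn1c, Col5a2, Cox6a2, Cpt2, Crhr1, Csnk1e, Dsp, Ebp, Ehf, Elane, Fabp4, Fgfr2, Fzd4, Fzd7, Gadd45a, Gbp2, Gja1, Glycam1, Hr, Hspa1a, Ighm, Igtp, Itgb4, Kif20a, Kitl, Lef1, Lgi4, Lgr5, Mmp12, Mrps12, Ms4a1, Mybl2, Nfil3, Notch4, Nr1d1, Nup54, Pax5, Plau, Pomc, Ppl, Psmd9, Rpl37a, Rpl38, Rxra, S100a9, Saa3, Sc5d, Smad1, Stat5b, Tgfa, Tgfb1, Tgm3, Timp2, Timp3, Tpsb2, Tradd, Tyr, Tyrp1, Vcan and Wnt4. The number of arrays, 3 per age, limits the precision, and probe sets near the floor give only a bound on a change.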
